A study of Mus musculus with 38 samples.

Results

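The 10 genes described here, Apoe, Trem2, Gpnmb, Lpl, Fabp4, Fabp5, Cd36, Plin2, Lipa and Pltp, encode proteins with which macrophages take up, carry, store and break down lipid. They were taken by name, and each was read through 1 probe set, the one with the highest mean over all arrays. All 10 were measured, out of 19937 genes with a probe set of a single symbol, and 9 of them had 1 probe set, Fabp5 being the exception. The values are log2 intensities, normalized by the authors, so a difference of 1 is a change by a factor of 2, and levels of different genes were not set against each other.

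A macrophage takes in lipid as lipoprotein particles, as free fatty acids or with dead cells. Lipoprotein lipase, from Lpl, frees fatty acids from particles outside the cell, and the scavenger receptor CD36 brings fatty acids and oxidised particles in. Lysosomal acid lipase, from Lipa, splits the cholesteryl esters and triglycerides that arrive in lysosomes. FABP4 and FABP5 carry fatty acids through the cytosol, and perilipin 2, from Plin2, coats the droplets that store the surplus. Apolipoprotein E, from Apoe, and the phospholipid transfer protein, from Pltp, take part in moving cholesterol and phospholipid back out. TREM2 is a surface receptor that binds lipids and lipoproteins and signals through the adaptor TYROBP, and GPNMB is a glycoprotein known from lipid-laden macrophages.

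RNA of sorted CD11b+ cells from female wild-type C57BL/6 mice aged 6 weeks was hybridised to 38 arrays of 13 populations. In the cutaneous lymph nodes (CLN), these were CD64+ migratory cells after 2,4-dinitrofluorobenzene (DNFB), a contact sensitiser, and CD64- migratory dendritic cells (DC) after DNFB and at steady state, all sorted as CD11c+ and MHCIIhi. In the dermis of the ear they were the macrophages P5 (MHCII+) and P4 (MHCII-), both CD64+, Ly6C- and CCR2-, and the CD64- MHCII+ DC after DNFB and at steady state. The CCR2+ dermal populations were P3, P2 and P1. P3 (CD64+, Ly6Clow, MHCII+) was taken at steady state. P2 (CD64+, Ly6Chigh, MHCII+) and P1 (CD64low, Ly6Chigh, MHCII-) were each taken after DNFB and at steady state. Ly6Chigh monocytes of the blood at steady state completed the set. DNFB was applied as 10 µl of a 0.5% solution in acetone and olive oil 3 days before harvest, and the steady-state mice are described as untreated, so DNFB and its solvent cannot be told apart. Each population had n = 3 arrays from separate pools of mice, except P1 after DNFB with n = 2, and 5 to 20 ng of RNA from 5000 to 10000 cells was amplified for each. Ears had been digested with dispase and collagenase and nodes with collagenase. The CD64+ node cells are called monocytes in one label and DC in another and are named by their gate here. A pool with fewer cells of a type and one with less RNA per cell cannot be told apart in such data.

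The gates were checked against markers. A list of 9 macrophage genes, such as the CD64 gene Fcgr1 and the complement genes C1qa, C1qb and C1qc, had a mean level of 10.84 in P5 and 10.93 in P4, of 9.40 in the CD64+ node cells and of 4.83 and 4.93 in node DC after DNFB and at steady state. Ccr7, which guides cells to lymph nodes, averaged 10.92, 11.41 and 11.56 in the node populations and 5.79 in blood. Genes of other skin cells were measured in every dermal population. The mean of 12 keratinocyte genes lay between 5.91 and 8.06 in the 9 dermal populations, between 4.60 and 4.83 in the node and at 4.53 in blood. That of 9 fibroblast genes was highest in P2 at steady state (8.12, SD 0.12), P1 after DNFB (8.05, SD 0.26) and P1 at steady state (7.97, SD 1.91), against 5.65 in P3 and 4.65 in blood. Genes of fat cells, which are a well-known source of Fabp4 and Lpl, were low: the mean of 10 adipocyte genes was 4.25 to 4.63 in all 13 populations, and Adipoq, the adiponectin gene, was at 3.20 to 4.16. A level under 4.02, the 40th percentile of all values, is called low signal below, and a difference that rests on one has no exact size.

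**Figure D1:**
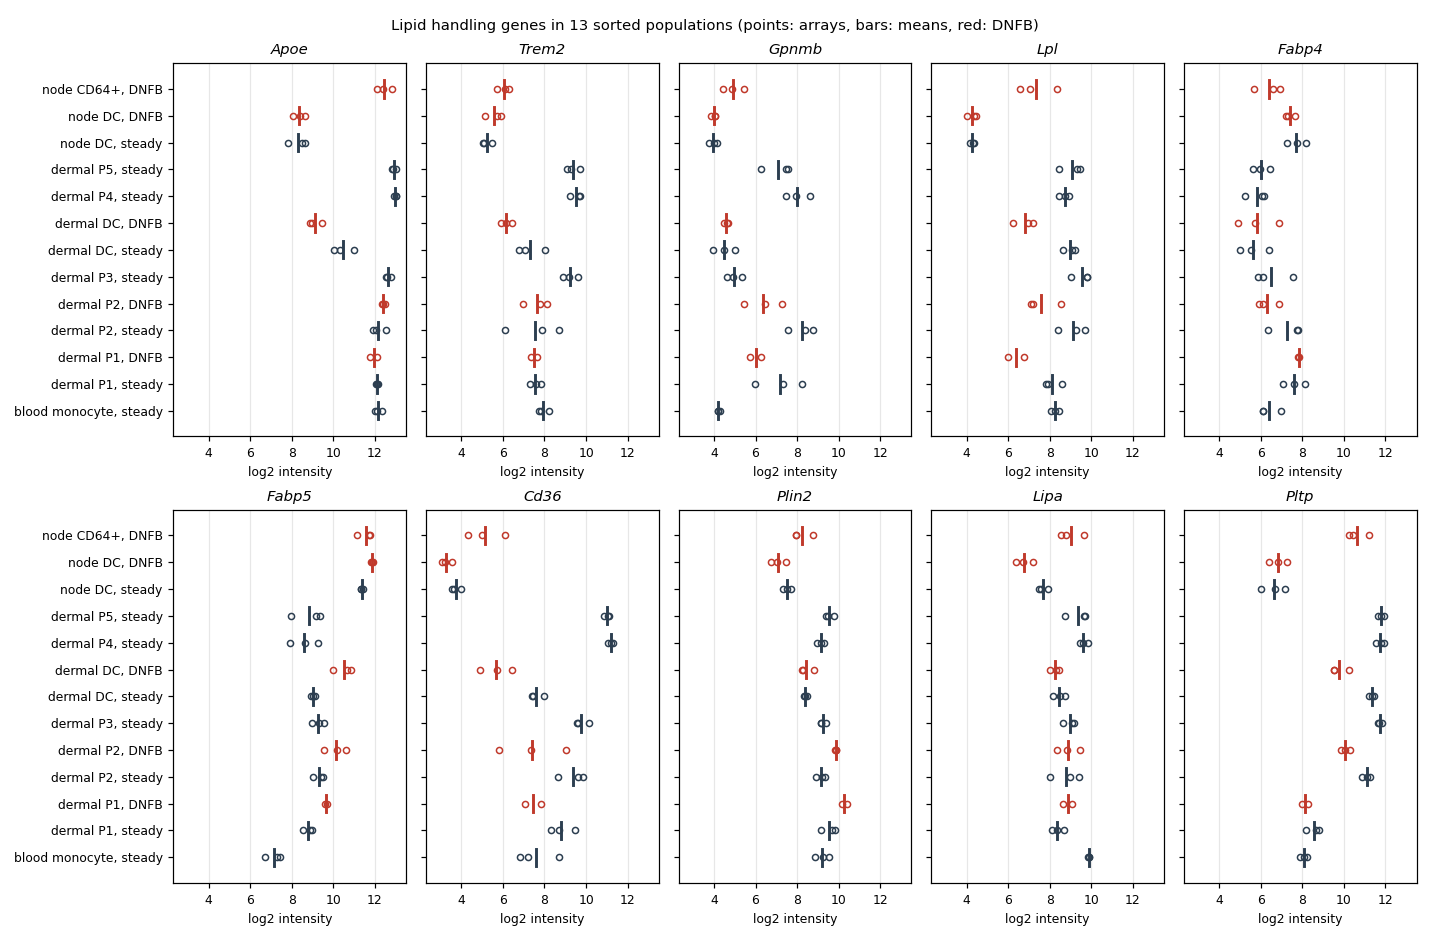
Log2 intensity (horizontal axis) of the 10 lipid handling genes in 13 sorted populations (vertical axis). Circles are single arrays, vertical bars are means, and red marks DNFB. Cd36 spreads from 3.28 in node DC after DNFB to 11.18 in P4, while Fabp4 stays between 5.65 and 7.83 and Fabp5 is highest in the 3 node populations.

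As a group the genes were not simply macrophage genes. In 4 of the 10, Apoe, Trem2, Cd36 and Pltp, the 2 macrophage populations P4 and P5 held the top 2 levels. The other 6 peaked elsewhere: Gpnmb in P2 at steady state, Lpl in P3, Plin2 and Fabp4 in P1 after DNFB, Lipa in blood monocytes and Fabp5 in node DC after DNFB. At the low end, 8 of the 10 had their lowest mean in one of the node DC populations, Fabp4 and Fabp5 being the exceptions. How many of all genes have their highest or lowest levels in these populations was not counted, so neither count sets the members apart from other genes.

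Among the genes of lipoproteins, Apoe was lower in the DC populations than in all others. It averaged 12.98 (SD 0.04) in P4 and 12.90 (SD 0.10) in P5, and from P3 (12.61) through the CD64+ node cells (12.43) and the P2 and blood populations to P1 after DNFB (11.94) each population overlapped the next in the ranges of their arrays. Below that came 2 clear steps, to dermal DC at steady state (10.44, SD 0.50) and to dermal DC after DNFB (9.10, SD 0.32), and then node DC at 8.36 and 8.31. Pltp divided the CCR2+ dermal populations. It averaged 11.79 in P5, 11.75 in P4 and 11.72 in P3, with overlapping arrays, and 8.55 in P1 at steady state, 8.14 in P1 after DNFB and 8.07 in blood, which overlapped as well. Dermal DC at steady state, at 11.34 (SD 0.12), came next below P3 without overlap, and node DC, at 6.82 after DNFB and 6.63 at steady state, lay below blood. Lpl was highest in P3 (9.54, SD 0.43), overlapped from there down to P4 (8.72, SD 0.24), and was lowest by far in node DC, at 4.27 (SD 0.21) after DNFB and 4.27 (SD 0.10) at steady state.

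Cd36 and Trem2, the receptors, were both highest in P4, P5 and P3 and lowest in the 3 node populations. In the populations between, their order differed, blood having rank 7 for Cd36 and rank 4 for Trem2. Cd36 had the widest range of the 10, 7.90 between its highest and lowest mean, wider than in 99.9% of all genes. It averaged 11.18 (SD 0.11) in P4 and 11.00 (SD 0.13) in P5, then 9.77 in P3, and 3.74 (SD 0.23) and 3.28 (SD 0.25) in node DC at steady state and after DNFB, both low signal. Trem2 stood at 9.52 (SD 0.25) in P4, 9.35 (SD 0.31) in P5 and 9.24 (SD 0.37) in P3 with overlapping arrays, and all other populations were lower, the next being blood at 7.93 (SD 0.24). Over the 13 population means the Pearson correlation of Trem2 and Cd36 was 0.955, the highest of the 45 pairs. The points of such a correlation share their arrays' normalization and, in the dermis, the digestion of the skin, and it is given as a description.

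The nuclear receptors of lipid metabolism, PPARs and LXRs with their partner RXR, are known to bind elements built from the letters AGGTCA, and the promoter windows that hold these letters are printed. Sequences of the 250 bases before and 50 bases after the annotated start were taken from RefSeq for assembly GRCm38.p6, where 7 members have at least 1 window. AGGTCA, on either strand, was found in those of Cd36, Plin2 and Trem2, and in 16.3% of all 32851 windows. These 3 were chosen for the letters and not for their levels: Plin2 had a correlation of 0.708 with Trem2 and 0.729 with Cd36, and Apoe, whose windows lack the letters, of 0.809 and 0.811. Each of the 3 holds it once, on the opposite strand, where it reads TGACCT and is set in capitals. In Plin2 the letters CACGTG, the palindromic E-box found in 7.15% of windows, are in capitals too. The paired elements AGGTCANAGGTCA and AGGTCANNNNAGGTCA, on either strand, were found in none of the member windows and in 0.0396% and 0.0152% of all windows. The windows are chr17:48346151-48346450 (+ strand) for Trem2, chr5:17835847-17836146 (- strand) for Cd36 and chr4:86670010-86670309 (- strand) for Plin2, each written 5′ to 3′ along the gene.
Trem2: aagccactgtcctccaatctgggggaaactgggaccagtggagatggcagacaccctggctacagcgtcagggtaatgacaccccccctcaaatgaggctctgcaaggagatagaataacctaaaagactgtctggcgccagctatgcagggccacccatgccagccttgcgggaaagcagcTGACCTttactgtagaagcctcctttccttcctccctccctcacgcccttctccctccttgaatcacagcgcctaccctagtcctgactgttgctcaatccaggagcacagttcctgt
Cd36: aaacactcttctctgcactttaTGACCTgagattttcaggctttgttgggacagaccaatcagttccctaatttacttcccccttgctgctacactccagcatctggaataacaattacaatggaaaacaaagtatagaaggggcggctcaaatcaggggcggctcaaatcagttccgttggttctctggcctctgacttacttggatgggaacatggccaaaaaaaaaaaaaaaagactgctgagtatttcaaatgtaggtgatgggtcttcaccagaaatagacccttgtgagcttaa
Plin2: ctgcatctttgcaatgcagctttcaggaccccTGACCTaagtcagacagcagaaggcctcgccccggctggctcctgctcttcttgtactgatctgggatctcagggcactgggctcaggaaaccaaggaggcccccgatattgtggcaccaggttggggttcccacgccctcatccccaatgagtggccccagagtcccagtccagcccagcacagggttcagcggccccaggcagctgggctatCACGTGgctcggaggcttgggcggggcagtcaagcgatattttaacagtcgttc
Counted from the start, the element begins at -68 in Trem2, -228 in Cd36 and -218 in Plin2, so the members that share it do not share its place. Its presence in letters says nothing about binding in these cells.

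The intracellular carriers went another way. Fabp5 was highest in the node, at 11.85 (SD 0.05) in DC after DNFB, 11.55 (SD 0.35) in CD64+ cells and 11.36 (SD 0.04) in DC at steady state, and lowest in blood (7.13, SD 0.37). The 3 dermal populations taken after DNFB came next, at 10.49, 10.12 and 9.65, all above the 6 dermal populations at steady state, which lay between 8.58 and 9.30. The second probe set of Fabp5 had its highest mean in node DC after DNFB (11.54) and its lowest in blood (6.26) as well. Fabp4 had the narrowest range of the 10 (2.18), and every population overlapped its neighbour in the order, from P1 after DNFB (7.83, SD 0.02) down to dermal DC at steady state (5.65, SD 0.72). P4 and P5 were near its lower end, at 5.81 (SD 0.50) and 6.01 (SD 0.42).

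The storage gene Plin2 and the breakdown gene Lipa peaked in different populations, although their 13 population means correlated (r = 0.706). Plin2 was highest in P1 after DNFB (10.28, SD 0.18), followed by P2 after DNFB (9.85, SD 0.04), and lowest in node DC, at 7.07 after DNFB and 7.51 at steady state. Lipa was highest in blood monocytes (9.89, SD 0.02), whose 3 arrays of 9.87, 9.91 and 9.91 lay above every array of the other populations. P4 (9.62) and P5 (9.35) followed, and node DC were lowest, at 7.66 at steady state and 6.75 after DNFB. Gpnmb was highest in P2 at steady state (8.23, SD 0.62), followed by P4, P1 and P5 at steady state and by P2 and P1 after DNFB (6.02, SD 0.37). The means of P3 (4.97, SD 0.37), dermal DC, blood and the node populations were lower, although 1 array of the CD64+ node cells, at 5.44, lay just above 1 array of P2 after DNFB, at 5.42. Its node DC values, 3.99 and 3.97, were low signal.

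**Figure D2:**
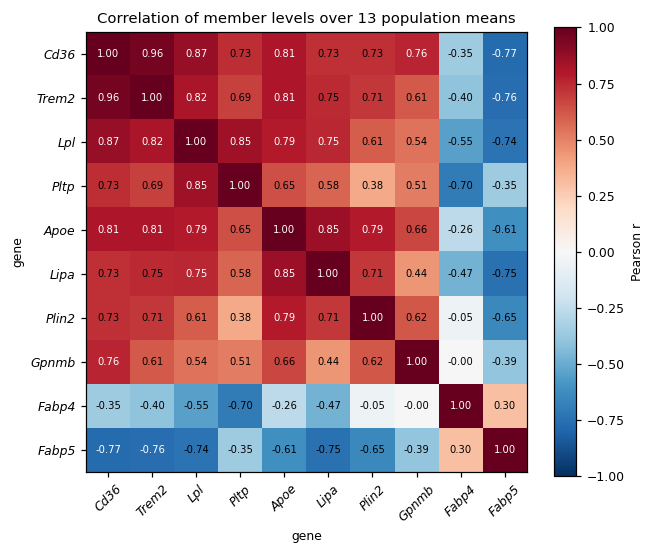
Pearson correlation (colour and number) of each pair of the 10 genes over the 13 population means, with genes on both axes. Every pair among the 8 genes other than Fabp4 and Fabp5 is above 0, the lowest being 0.377 for Plin2 and Pltp, and Fabp5 is lowest with Cd36 at -0.769.

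The correlation plot shows the same split. Of 45 pairs, 16 were below 0, and each of these contained Fabp4 or Fabp5. The genes whose population means were most like those of a member, among 2606 genes with a range of at least 2, differed for each. Lpl was nearest to Pparg, which encodes a nuclear receptor of fatty acids (r = 0.970, n = 13 populations), Pltp to Fcrls (0.936) and the complement gene C1qc (0.936), and Apoe to the cathepsin gene Ctsb (0.968). Gpnmb was nearest to Ctsk, which encodes cathepsin K (0.952), Fabp5 to Cd274, which encodes the checkpoint ligand PD-L1 (0.956), and Plin2 to Fndc3b (0.960). Cd36 was nearest to Gnaq (0.975), Trem2 to Ubtd1 (0.957) and Lipa to Dusp6 (0.959). Tpcn1, which encodes an ion channel of endolysosomes, was second for both Cd36 (0.960) and Trem2 (0.954). For Fabp4 the nearest gene, Paqr3, reached 0.822.

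**Figure D3:**
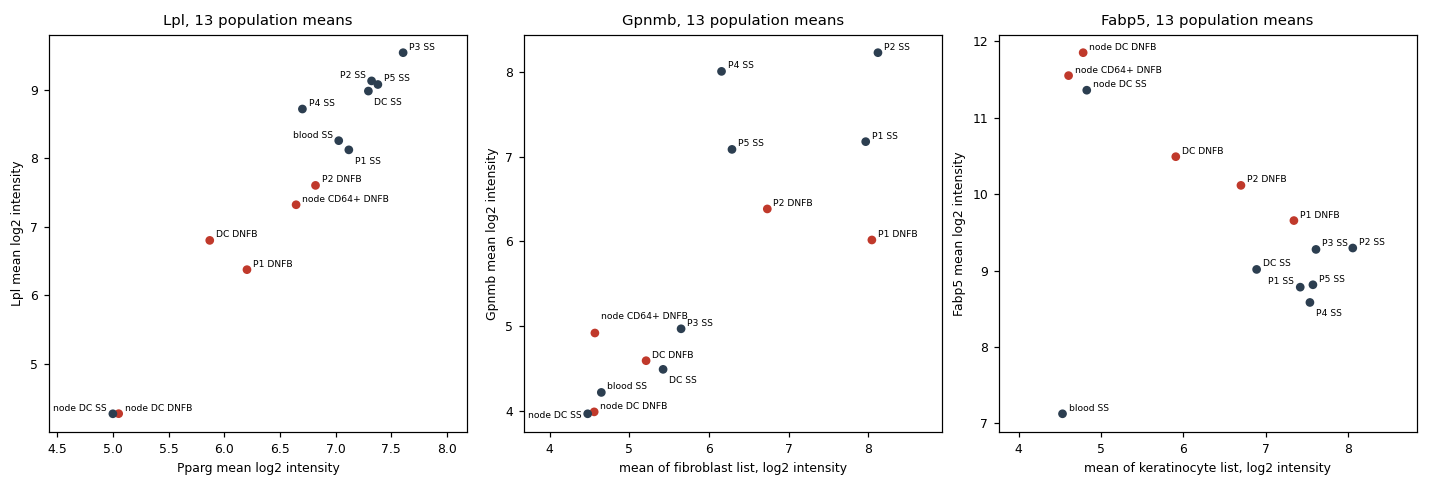
Mean log2 intensity of Lpl, Gpnmb and Fabp5 (vertical axes) against that of Pparg, of the fibroblast list and of the keratinocyte list (horizontal axes). Points are the 13 populations, red after DNFB, SS standing for steady state. Lpl is higher where Pparg is higher. Populations with a fibroblast list of 6.16 (P4) or more have Gpnmb at 6.02 or more. Those with a list of 5.65 (P3) or less have it at 4.97 or less. Fabp5 is lowest in blood, where the keratinocyte list is lowest (4.53). It is highest in the 3 node populations, where that list is nearly as low (4.60 to 4.83).

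P1, the monocytes of the dermis, were compared with the monocytes of the blood. Gpnmb had 5.99, 8.25 and 7.30 in P1, against 4.21, 4.18 and 4.27 in blood. The blood arrays were alike and all 3 P1 arrays lay above them. It rose by 2.96 (SE 0.45, 7.78-fold, adjusted p = 2.8e-05 in limma, adjusted by Benjamini-Hochberg over all 19937 genes, as are all adjusted p here). The blood level of Gpnmb was close to low signal, so this rise has no exact size. Fabp5 had 8.55, 8.85 and 8.95 in P1, against 7.27, 6.70 and 7.41 in blood, again without overlap, and rose by 1.66 (SE 0.32, 3.15-fold, adjusted p = 0.0005). Lipa had 8.33, 8.67 and 8.09 in P1, all under the blood arrays, and fell by 1.53 (SE 0.32, adjusted p = 0.0013). In all 3 of the 10 passed in P1 against blood, 2 up and 1 down, where 12.6% of all genes passed (5.21% rose and 7.43% fell), and the median difference of the 10 was 0.40, against 0.01 over all genes. Cd36 differed by 1.23 (SE 0.55, adjusted p = 0.16) and Fabp4 by 1.18 (SE 0.49, adjusted p = 0.12), and the other 5 by -0.37 to 0.47. Without replicate 1 of blood, whose Cd36 level of 8.72 stood above 7.20 and 6.84, Cd36 passed as well (adjusted p = 0.046). Skin cell markers rose beside these genes, 10 of 12 keratinocyte and 8 of 9 fibroblast genes. Among the P1 arrays, replicate 2 had the highest Gpnmb level and the highest means of both lists. Its fibroblast mean was 10.16, against 6.62 and 7.13 in replicates 1 and 3. With both list means as covariates Fabp5 still passed (2.55, adjusted p = 0.033), while Gpnmb (2.97, adjusted p = 0.051) and Lipa (-0.88, adjusted p = 0.7) did not.

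Other lipid genes moved in P1 in both directions. Abca1, the pump that exports cholesterol to apolipoproteins, rose by 2.58 (SE 0.25), and Mylip, whose product degrades the LDL receptor, by 0.92. These were the 2 rises among 10 genes of nuclear receptors and their targets, with no falls. The droplet gene Hilpda, an inhibitor of the lipase ATGL, rose by 2.68 (SE 0.24) and the phosphatidate phosphatase gene Lpin2 by 1.10, and Lipe, for hormone-sensitive lipase, fell by 1.02 (14 genes, 2 up and 1 down). Among 9 genes of fatty acid oxidation 0 rose and 2 fell, Cpt1a by 1.05 and Cpt2 by 1.04, whose products carry fatty acids into mitochondria. Of 10 further lipoprotein genes 3 rose and 2 fell. Apod rose by 4.66 (SE 0.69), and Lmf1, for a factor that lets lipase mature, fell by 1.09. Keratinocyte and fibroblast genes rose in this comparison too, as given above, and their part in the differences of these wider lists was not tested.

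Within the dermis, Pltp rose in P2 against P1. It had 11.28, 11.12 and 10.89 in P2, against 8.82, 8.64 and 8.18 in P1. The groups were far apart, and the rise of 2.55 (SE 0.26, 5.86-fold, adjusted p = 9.8e-08) held in every alternative fit and without any 1 array. It was the only 1 of the 10 to pass, where 2.09% of all genes passed (1.34% rose). Gpnmb differed by 1.05 (adjusted p = 0.34) and Lpl by 1.01 (adjusted p = 0.27, and 1.35 with adjusted p = 0.043 with the keratinocyte and fibroblast covariates). Abca1 rose again, by 1.22 (SE 0.25), as did Hilpda by 1.18 (SE 0.24), the fatty acid transporter family gene Slc27a3 by 2.80 (SE 0.26) and Npc1, which exports cholesterol from lysosomes, by 0.90 (SE 0.24). Slc27a3 stood at 4.04 in P1, close to low signal. Cell type lists moved beside these genes: 4 of 9 macrophage, 5 of 8 DC and 3 of 8 DC maturation genes rose, and 1 of 7 monocyte genes fell. The macrophage list had means of 10.16, 9.35 and 8.99 in P2, against 8.14, 7.99 and 8.19 in P1, and was spread among the P2 arrays in the same order as most members. The DC list had means of 7.23 to 7.37 in P2, against 5.80 to 5.99 in P1, and the DC maturation list of 8.03 to 8.44 in P2, against 6.62 to 6.89 in P1. Their part in the rise of Pltp was not tested.

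P3 was set apart from P2 by Gpnmb. It had 5.36, 4.63 and 4.91 in P3, against 8.37, 8.76 and 7.55 in P2. No arrays overlapped, and it fell by 3.26 (SE 0.45, 9.58-fold, adjusted p = 0.00015), and it passed in every alternative fit and without any 1 array. This was 1 of 10, where 0.371% of all genes passed (0.196% fell). Fibroblast genes were lower in P3 as well: 5 of 9 fell, with list means of 5.42 to 6.09 in P3 and 8.04 to 8.26 in P2. With both marker list means as covariates Gpnmb still passed (-2.23, adjusted p = 0.035). Of 7 monocyte genes 4 fell, and of 9 macrophage genes 1 rose, with list means of 10.43 to 10.58 in P3, against 8.99 to 10.16 in P2, and their part in these differences was not tested. Trem2 had 8.89, 9.63 and 9.19 in P3, against 8.69, 7.88 and 6.12 in P2, without overlap but with a wide spread in P2. Its difference of 1.67 (SE 0.40, adjusted p = 0.059) did not pass, and it did (adjusted p = 0.0033) without replicate 1 of P2, as it did with low genes left out (0.038), with the adipocyte and endothelial list means as covariates (1.79, 0.04) and with the replicate number as a block (0.049). The other 8 differed by -0.77 to 0.63. Of the pathway lists, none had a gene that passed.

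The P4 and P5 macrophages were compared with P3, with each other and with dermal DC. Gpnmb was higher in P5, at 7.46, 7.55 and 6.25, against 5.36, 4.63 and 4.91 in P3. The groups did not overlap, and it rose by 2.12 (SE 0.45, 4.34-fold, adjusted p = 0.012), the single pass among the 10 where 1.25% of all genes passed (0.557% rose). The call was lost without replicate 2 of P3 or replicate 1 or 2 of P5 (adjusted p = 0.058 to 0.071) and when only P5 and P3 were fitted (0.19). Fibroblast genes did not pass here (0 of 9), with overlapping list means of 5.96 to 6.71 in P5, against 5.42 to 6.09 in P3. Their mean was higher in P5 (6.29) than in P3 (5.65), the same direction as Gpnmb. Cd36 differed by 1.23 (SE 0.55, adjusted p = 0.45), although its arrays of 11.05, 10.85 and 11.11 in P5 lay above 9.60, 9.56 and 10.16 in P3. Between the MHCII+ P5 and the MHCII- P4 limma called 0 of the 10, and Gpnmb alone had an unadjusted p under 0.05 (a difference of -0.92, SE 0.45, adjusted p = 0.67), where 0.492% of all genes passed (0.291% rose and 0.201% fell). The intervals allow differences of up to 1.84 for Gpnmb and 0.53 for Apoe, so the 2 populations are not shown to be alike.

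Against dermal DC, P5 and P4 as 1 group had higher levels of 6 of the 10 genes, where 9.83% of all genes passed (4.73% rose and 5.09% fell). The median difference of the 10 was 0.99, against -0.03 over all genes. Cd36 had 11.05, 10.85 and 11.11 in P5 and 11.28, 11.06 and 11.20 in P4, against 8.0, 7.39 and 7.45 in dermal DC. Macrophages were higher in all arrays, by 3.48 (SE 0.47, 11.2-fold, adjusted p = 3.1e-06). Gpnmb had 7.46, 7.55 and 6.25 in P5 and 7.96, 8.62 and 7.45 in P4, against 4.47, 3.97 and 5.03 in dermal DC, a rise of 3.06 (SE 0.39, 8.32-fold, adjusted p = 1.1e-06). The dermal DC array at 3.97 was at low signal, so this rise has no exact size. Apoe had 13.02, 12.82 and 12.87 in P5 and 13.01, 12.99 and 12.93 in P4, against 10.02, 10.30 and 11.00 in dermal DC, a rise of 2.50 (SE 0.19). Trem2 rose by 2.15 (SE 0.35), Plin2 by 0.96 (SE 0.18) and Lipa by 1.02 (SE 0.27, adjusted p = 0.013). The call of Lipa, whose arrays overlapped, was lost without replicate 2 of dermal DC (0.11) and with the adipocyte and endothelial covariates (0.061). Lpl (-0.08, SE 0.34), Pltp (0.43, SE 0.22), Fabp4 and Fabp5 did not pass, and the interval of Lpl ran between -0.78 and 0.61. Beside this, 8 of 9 macrophage genes rose, 0 of 12 keratinocyte genes passed, and 3 of 9 fibroblast genes rose and 1 fell.

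P3 and dermal DC, both MHCII+, were told apart by a smaller set. Apoe had the values just given in dermal DC, against 12.57, 12.51 and 12.75 in P3, and fell by 2.17 (SE 0.22, adjusted p = 4.6e-07), and it passed in every alternative fit and without any 1 array. Trem2 had 8.04, 6.78 and 7.05 in dermal DC, all below P3, and fell by 1.94 (SE 0.40, adjusted p = 0.0051). Cd36 fell by 2.16 (SE 0.55, adjusted p = 0.032) and Plin2 by 0.85 (SE 0.21, adjusted p = 0.028). These were 4 of 10, where 1.8% of all genes passed (1.05% fell). The last 3 were less firm: Trem2 was lost without replicate 2 of dermal DC (0.054) and with only these groups fitted (0.1), Cd36 without any array but replicate 1 of dermal DC (0.062 to 0.12), and Plin2 without any 1 of the 6 (0.053 to 0.13). Beside them 6 of 9 macrophage genes fell in dermal DC, 4 of 8 DC genes rose, and their part in these falls was not tested. Of the wider lists Apod, which encodes a lipid-binding apolipoprotein, rose by 3.11 (SE 0.69, adjusted p = 0.011) as 1 of 10 lipoprotein genes, and Slc27a3 rose by 1.68. Pla2g15 fell by 1.49 and Abca1 by 1.27. Of the 11 genes named with Trem2 in lipid-associated macrophages of other tissues 3 fell, Ctsl by 2.12, Cd63 by 1.66 and Ctsb by 0.84, and 0 rose.

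The wider lipid lists did not follow one direction between macrophages and DC. Among 8 genes of lysosomal lipid breakdown 3 rose in macrophages, Pla2g15, a phospholipase, by 2.21 (SE 0.24), Hexa by 1.06 and the acid ceramidase gene Asah1 by 0.73, and Gm2a, for the activator that presents GM2 ganglioside, fell by 1.11 (SE 0.14). Of 10 genes of nuclear receptors and targets 2 rose, Abca1 by 1.20 and Mylip by 1.05, and Abcg1, the partner pump of Abca1, fell by 0.57. Of 14 droplet genes Lpin1 rose by 1.53 (SE 0.26) and Hilpda fell by 0.93. Of 8 genes of fatty acid entry Slc27a1 rose by 1.16 (SE 0.19), and Slc27a3 fell, at 4.38 in P5 and 4.00 in P4, against 8.89 in dermal DC, a difference with no exact size because P4 was at low signal. Of the 11 genes named with Trem2 4 rose and 4 fell, among them the cathepsin genes Ctsl, which rose by 3.36, and Ctsb, which rose by 1.49. Itgax fell by 3.20, Clec7a fell by 2.10 and Cd9 fell by 1.59.

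**Figure D4:**
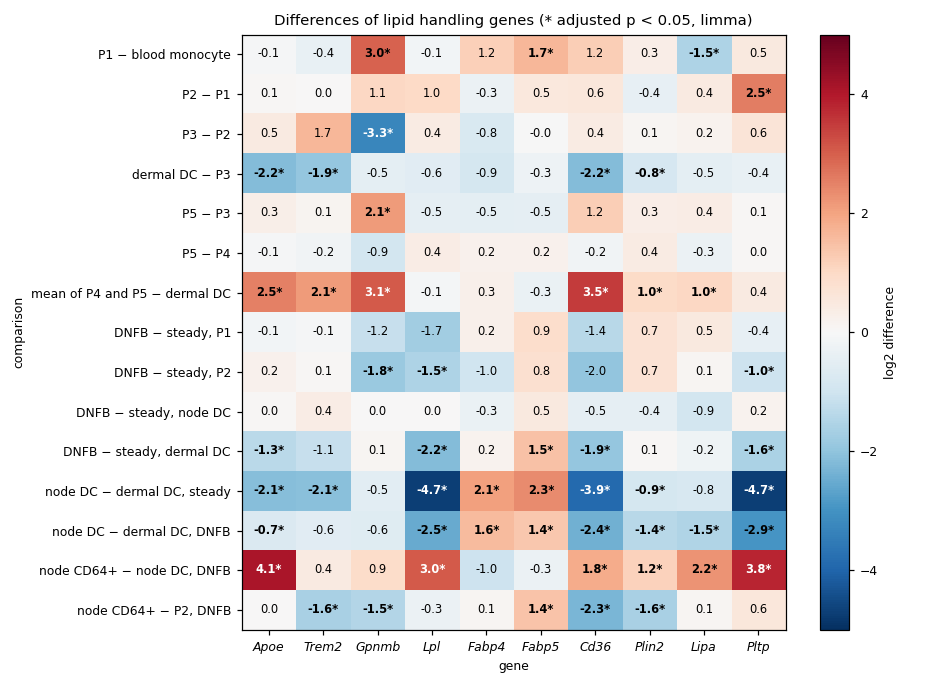
Log2 differences (colour and number) of the 10 genes (horizontal axis) in 15 comparisons (vertical axis), each named as the first population minus the second. An asterisk marks an adjusted p under 0.05 in limma. The 2 rows of node DC minus dermal DC hold 8 passes each, and those of P5 minus P4, DNFB in P1 and DNFB in node DC none.

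In dermal DC, 4 of the genes were lower after DNFB and 1 was higher. Lpl had 6.26, 6.96 and 7.19 in dermal DC after DNFB, against 9.22, 8.65 and 9.08 at steady state. All 3 arrays lay below those at steady state, by 2.18 (SE 0.39, 4.53-fold, adjusted p = 0.0006). Pltp had 9.52, 9.50 and 10.26 after DNFB, against 11.45, 11.22 and 11.34 at steady state, and fell by 1.58 (SE 0.26, 2.99-fold, adjusted p = 0.00019). Apoe had 8.87, 9.46 and 8.97 after DNFB, against 10.02, 10.30 and 11.00 at steady state, and fell by 1.34 (SE 0.22, 2.52-fold, adjusted p = 0.0002). The falls of these 3 held in every alternative fit and without any 1 array. Cd36 had 4.91, 6.43 and 5.72 after DNFB, against 8.0, 7.39 and 7.45 at steady state, and fell by 1.93 (SE 0.55, adjusted p = 0.039). That call was lost without any array but replicate 2 of DNFB (0.072 to 0.24), with the adipocyte and endothelial covariates (0.31) and with the replicate number as a block (0.05). Fabp5 went up, with 10.67, 10.85 and 9.96 after DNFB, against 9.03, 8.91 and 9.11 at steady state, by 1.48 (SE 0.32, 2.78-fold, adjusted p = 0.0039), and did not pass with the keratinocyte and fibroblast covariates (1.16, 0.054). In all 1 rose and 4 fell, where 4.16% of all genes passed (2.11% rose and 2.06% fell). Trem2 differed by -1.13 (SE 0.40, adjusted p = 0.13) without overlap. The keratinocyte list was lower after DNFB, with means of 5.47 to 6.16, against 6.61 to 7.30 at steady state, and 2 of its 12 genes fell. Among macrophage genes 1 of 9 rose and 4 fell, with list means of 7.79 to 8.24 after DNFB, against 8.68 to 8.96 at steady state, and their part in the falls of Apoe, Pltp and Cd36 was not tested.

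Partners of these genes fell in the same cells. Lrp1, a receptor for apolipoprotein E and other ligands, fell by 1.74 (SE 0.22) and Apoc1 by 2.05 (SE 0.59), the 2 falls among 10 lipoprotein genes with 0 rises. Pparg fell by 1.42 (SE 0.34, adjusted p = 0.012), Abca1 by 1.47 (SE 0.25) and Mylip by 0.85, 3 falls among 10 genes of nuclear receptors and targets with 0 rises. Slc27a3 fell by 3.20 (SE 0.26). Npc2 and Psap, which serve lipid transport and breakdown in lysosomes, fell by 0.96 and 0.75 (8 genes, 2 falls and 0 rises). Of 14 droplet genes, Dgat1, which makes triglyceride, rose by 1.60 (SE 0.38), Lipe rose by 0.78 and Plin3 fell by 1.15.

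**Figure D5:**
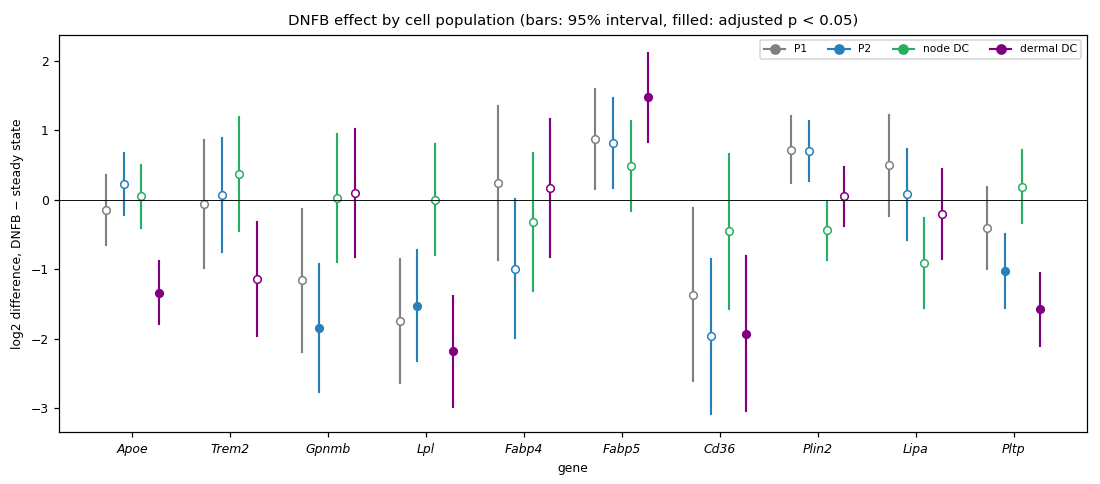
Log2 difference after DNFB minus steady state (vertical axis) of the 10 genes (horizontal axis) in P1, P2, node DC and dermal DC. Points are estimates, filled where the adjusted p is under 0.05, and bars are 95% intervals. Lpl lies below 0 in P1, P2 and dermal DC and at 0 in node DC, and Apoe is below 0 by a clear margin in dermal DC.

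In P2, Gpnmb, Lpl and Pltp were lower after DNFB. Gpnmb had 5.42, 7.28 and 6.45 after DNFB, against 8.37, 8.76 and 7.55 at steady state. The arrays did not overlap, and it fell by 1.84 (SE 0.45, 3.59-fold, adjusted p = 0.022). Lpl had 7.10, 8.53 and 7.18 after DNFB, against 9.69, 9.29 and 8.42 at steady state, overlapping in 1 array of each group, and fell by 1.52 (SE 0.39, adjusted p = 0.033). Pltp had 10.30, 10.06 and 9.86 after DNFB, against 11.28, 11.12 and 10.89 at steady state, and fell by 1.02 (SE 0.26, adjusted p = 0.029). These 3 falls, with 0 rises, compare with 2.02% of all genes that passed (0.998% fell). Each was lost without any 1 of 4 of the 6 arrays and when only these groups were fitted (0.25 for Gpnmb, 0.32 for Lpl and 0.09 for Pltp). Those arrays were replicates 1 and 3 of DNFB and 1 and 2 of steady state for Gpnmb (adjusted p = 0.065 to 0.15) and Lpl (0.11 to 0.18), and replicates 2 and 3 of DNFB and 1 and 2 of steady state for Pltp (0.09 to 0.14). Cd36 differed by -1.96 (SE 0.55, adjusted p = 0.055) with 5.83, 9.03 and 7.37 after DNFB, a wide spread, against 9.85, 9.62 and 8.65 at steady state. It passed without replicate 2 of DNFB or replicate 3 of steady state (adjusted p = 0.003 to 0.044), so the count of members that passed lay between 0 and 4 when 1 array was left out. Plin2 had 9.88, 9.87 and 9.81 after DNFB, all above 9.34, 9.20 and 8.91 at steady state, a difference of 0.70 (SE 0.21, adjusted p = 0.08). Keratinocyte genes (3 of 12 fell) and fibroblast genes (1 of 9 fell) were lower after DNFB, with fibroblast means of 6.34 to 7.03 after DNFB, against 8.04 to 8.26 at steady state. With both list means as covariates Lpl still passed (-2.31, adjusted p = 0.0087), while Gpnmb (-1.94, adjusted p = 0.057) and Pltp (-1.09, 0.16) did not. Lists of immune cells shifted without overlap as well. The DC maturation list had means of 7.10 to 7.36 after DNFB, against 8.03 to 8.44 at steady state (2 of 8 genes fell). The neutrophil list had 5.24 to 6.13 after DNFB, against 4.14 to 4.68 at steady state (1 of 7 rose), and the monocyte list 9.88 to 10.32 after DNFB, against 9.10 to 9.81 at steady state (2 of 7 rose). Of 9 macrophage genes 1 rose, with overlapping list means of 9.76 to 10.33 after DNFB, against 8.99 to 10.16 at steady state. The part of these lists in the falls of Gpnmb, Lpl and Pltp was not tested. Slc27a3 fell here too, by 2.50 (SE 0.26).

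In P1, with 2 arrays after DNFB, limma called 0 of the 10, and 5 had an unadjusted p under 0.05, where 0.637% of all genes passed (0.562% rose and 0.0752% fell). Lpl had 6.00 and 6.75 after DNFB, against 8.61, 7.93 and 7.84 at steady state, all lower, with a difference of -1.75 (SE 0.44, adjusted p = 0.06). It passed with low genes left out (0.044), with quantile normalization (0.047) and with the keratinocyte and fibroblast covariates (-1.78, 0.016). Plin2 had 10.41 and 10.15 after DNFB, all above 9.83, 9.17 and 9.66 at steady state (0.73, SE 0.23, adjusted p = 0.19). Cd36 differed by -1.37 (adjusted p = 0.41) and Gpnmb by -1.16 (adjusted p = 0.39). In node DC the same test called 0 of the 10 and 2, Lipa (-0.91, SE 0.32, adjusted p = 0.24) and Plin2 (-0.44, SE 0.21, adjusted p = 0.57), had an unadjusted p under 0.05, where 1.34% of all genes passed (0.903% rose and 0.441% fell). Lpl differed there by 0.00 (SE 0.39), with an interval of -0.80 to 0.80. Of the wider lists in node DC, Lrp8, an apolipoprotein E receptor, rose by 1.62 (SE 0.23) and Lpin2 by 1.10, and Npc2 and Psap fell by 0.59 and 0.53.

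Whether DNFB acted differently on 2 populations was tested as a difference of effects. The effect on Apoe was 0.23 in P2 and -1.34 in dermal DC, and these differed by 1.56 (SE 0.31, adjusted p = 0.018), the 1 pass of 10 where 0.251% of all genes passed (0.12% upwards). It was lost without any 1 of 6 of the 12 arrays (replicates 1 and 3 of dermal DC after DNFB, 3 of dermal DC at steady state, 2 of P2 after DNFB, and 2 and 3 of P2 at steady state, 0.053 to 0.083) and when only these groups were fitted (0.18). The effect in node DC exceeded that in dermal DC by 1.38 for Apoe (SE 0.31, adjusted p = 0.017), by 2.18 for Lpl (SE 0.55, adjusted p = 0.042) and by 1.77 for Pltp (SE 0.37, adjusted p = 0.0084), 3 of 10 where 1.31% of all genes passed (0.813% upwards). All 3 were lost with the adipocyte and endothelial covariates (0.23, 0.2 and 0.14), Apoe and Pltp with only these groups fitted (0.12 and 0.062), Lpl also without any 1 of 10 of the 12 arrays (0.06 to 0.16; the other 2 were replicate 3 of dermal DC after DNFB and replicate 2 of dermal DC at steady state) and Apoe without replicate 1 or 3 of dermal DC after DNFB, or replicate 3 of dermal DC at steady state or of node DC in either state (0.05 to 0.078). Lpl at 4.27 in node DC in both states was close to low signal, so a further fall could hardly have been measured there. Between P1 and P2 the effects differed for 0 of the 10 in limma, and 0 had an unadjusted p under 0.05, where 0.0552% of all genes passed.

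Of the 15 comparisons of populations, node DC against dermal DC at steady state had the most genes that passed, 20.3% (10.1% rose and 10.1% fell). Of the 10 members 2 rose and 6 fell, and their median difference was -1.48, against 0.05 over all genes. Lpl had 4.36, 4.16 and 4.31 in node DC, against 9.22, 8.65 and 9.08 in dermal DC, a fall by 4.71 (SE 0.39, 26.1-fold, adjusted p = 1.2e-10). The node DC level of Lpl was close to low signal, so this fall has no exact size. Pltp had 6.01, 6.70 and 7.19 in node DC, against 11.45, 11.22 and 11.34 in dermal DC, a fall by 4.71 too (SE 0.26, adjusted p = 1.6e-14). Cd36 had 3.99, 3.56 and 3.65 in node DC, against 8.0, 7.39 and 7.45 in dermal DC, a fall by 3.88 (SE 0.55) that rests on low signal. None of these arrays overlapped. Apoe fell by 2.13 (SE 0.22), Trem2 by 2.08 (SE 0.40) and Plin2 by 0.88 (SE 0.21), the last 2 not passing with the adipocyte and endothelial covariates (0.08 and 0.092). The macrophage list fell in node DC as well, 8 of 9 genes, with means of 4.62 to 5.11, against 8.68 to 8.96 in dermal DC, and 9 of 12 keratinocyte genes fell. With the keratinocyte and fibroblast covariates Lpl differed by -5.84. The keratinocyte list had means of 4.68 to 4.96 in node DC and 6.61 to 7.30 in dermal DC, without overlap. That fit therefore cannot separate keratinocyte RNA from the tissue of origin.

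The 2 carriers rose together in node DC. Fabp4 had 7.74, 8.17 and 7.24 in node DC, against 6.41, 4.99 and 5.55 in dermal DC. The groups did not overlap, and it rose by 2.07 (SE 0.49, 4.20-fold, adjusted p = 0.002). Fabp5 had 11.34, 11.34 and 11.41 in node DC, against 9.03, 8.91 and 9.11 in dermal DC, and rose by 2.35 (SE 0.32, 5.08-fold, adjusted p = 1.1e-06). Both calls held in every alternative fit and without any 1 array. Because Fabp4 is also a gene of fat cells, which surround lymph nodes, fat cell genes were read beside it: 2 of 10 rose, Lipe by 1.51 (SE 0.22) and Adipoq by 0.83 (SE 0.16), Adipoq standing at 4.16 (SD 0.46) in node DC and 3.33 (SD 0.15) in dermal DC, both at or near low signal. With the adipocyte and endothelial list means as covariates Fabp4 rose by 2.59 (adjusted p = 0.011) and Fabp5 by 2.19 (adjusted p = 0.0014). The adipocyte list lay near low signal in all populations, at 4.25 to 4.63, so this fit is not a test of fat cell RNA. DC maturation genes rose too, 6 of 8, and their part in the rise of Fabp5 was not tested.

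After DNFB, 17.5% of all genes passed between node and dermal DC (8.44% rose and 9.04% fell), and 2 of the 10 rose and 6 fell. The comparison shares no arrays with that at steady state. Lpl fell by 2.53 (SE 0.39), Pltp by 2.94 (SE 0.26), Cd36 by 2.40 (SE 0.55, on low signal in node DC), Lipa by 1.51 (SE 0.32), Plin2 by 1.37 (SE 0.21) and Apoe by 0.74 (SE 0.22, adjusted p = 0.016). Lpl was close to low signal in node DC here too. Fabp4 had 7.32, 7.23 and 7.66 in node DC, against 5.72, 6.88 and 4.88 in dermal DC, and rose by 1.58 (SE 0.49, adjusted p = 0.021). Fabp5 rose by 1.36 (SE 0.32), with 11.87, 11.79 and 11.89 in node DC, above 10.67, 10.85 and 9.96 in dermal DC. Fabp4 was lost without replicate 1 or 3 of dermal DC or replicate 3 of node DC (0.067 to 0.19), Apoe without replicate 2 of either group (0.11 and 0.12) and with quantile normalization (-0.63, 0.051), and Fabp5 with the keratinocyte and fibroblast covariates (1.00, 0.051). Trem2, which fell at steady state, differed by -0.57 (SE 0.40, adjusted p = 0.43) here. Beside this, 8 of 9 macrophage and 4 of 12 keratinocyte genes fell.

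The lists around the members moved both ways between node and dermal DC. At steady state 5 of 10 lipoprotein genes fell, among them Lrp1 by 3.73 (SE 0.22), Apod by 4.44 and Scarb1, the HDL receptor gene, by 2.58, with 0 rises. Of 8 lysosomal lipid genes 5 fell, led by Gm2a by 3.40 (SE 0.16) and Npc1 by 1.39. Of 14 droplet genes 4 fell and 1, Lipe, rose: Hilpda fell by 4.11 (SE 0.24), at 5.30 in node DC, against 9.41 in dermal DC, and Dgat2 by 1.94. Of the nuclear receptor list 4 fell, with Abca1 by 2.96 (SE 0.25) and Pparg by 2.29 (SE 0.34), and 2 rose, Abcg1 by 1.41 and Nr1h3, which encodes LXR alpha, by 1.31. Fatty acid oxidation split evenly, with 3 rises, Etfdh (1.45), Cpt2 (1.28) and Acadl (1.26), and 3 falls, Cpt1a (-1.36), Acadm (-1.14) and Hadhb (-0.76).

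The CD64+ cells of the node after DNFB had higher levels of 6 of the 10 genes than node DC after DNFB. Apoe had 12.40, 12.09 and 12.79 in CD64+ cells, against 8.37, 8.06 and 8.65 in node DC. They were apart in all arrays, by 4.06 (SE 0.22, 16.7-fold, adjusted p = 1.2e-13). Pltp had 10.43, 10.24 and 11.23 in CD64+ cells, against 6.38, 6.83 and 7.26 in node DC, a rise of 3.81 (SE 0.26, 14.0-fold, adjusted p = 6.2e-12). Lpl had 7.06, 6.57 and 8.33 in CD64+ cells, against 4.44, 4.04 and 4.35 in node DC, a rise of 3.05 (SE 0.39, 8.27-fold, adjusted p = 1.8e-06). The node DC level of Lpl was close to low signal, so this rise has no exact size. Lipa rose by 2.25 (SE 0.32), Plin2 by 1.15 (SE 0.21) and Cd36 by 1.85 (SE 0.55, adjusted p = 0.044, on low signal in node DC), so 6 of 10 rose and 0 fell, where 4.82% of all genes passed (3.82% rose). Cd36 was lost without any array but replicate 1 of the CD64+ cells (0.06 to 0.36), with either pair of covariates (0.24 and 0.06), with the replicate block (0.059) and, like Plin2, with only these groups fitted (0.053 for Cd36 and 0.067 for Plin2). Fabp4 differed by -1.02 (SE 0.49, adjusted p = 0.33), Trem2 by 0.45 (SE 0.40, adjusted p = 0.69) and Fabp5 by -0.30. All 9 macrophage genes rose with the members. Of 8 lysosomal lipid genes 6 rose and 0 fell, Gm2a by 2.24, Psap by 1.22 and Hexa by 1.36, and of the nuclear receptor list 4 rose and 0 fell, Nr1h3 by 3.42 (SE 0.30), Abca1 by 2.27, Rxra by 2.12 and Pparg by 1.59.

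Compared with dermal P2 after DNFB, which share the CD64 gate, the CD64+ node cells had lower levels of Plin2, Trem2, Cd36 and Gpnmb and a higher level of Fabp5. Plin2 had 7.95, 7.97 and 8.75 in CD64+ node cells, against 9.88, 9.87 and 9.81 in P2, and fell by 1.63 (SE 0.21, 3.09-fold, adjusted p = 9.2e-07). Trem2 had 6.11, 5.71 and 6.27 in CD64+ node cells, against 6.99, 8.12 and 7.79 in P2, and fell by 1.60 (SE 0.40, adjusted p = 0.0055). Neither pair of groups overlapped, and both calls held in every alternative fit and without any 1 array. Cd36 fell by 2.28 (SE 0.55, adjusted p = 0.0037) and Gpnmb by 1.46 (SE 0.45, adjusted p = 0.027), with overlapping arrays, and Fabp5 rose by 1.44 (SE 0.32, adjusted p = 0.0015), in all 5 of 10, where 12.6% of all genes passed (7.26% rose and 5.37% fell). Cd36 was lost without replicate 2 of P2 (0.068) and with only these groups fitted (0.14). Gpnmb was lost without replicate 1 or 2 of the CD64+ cells or 2 or 3 of P2 (0.078 to 0.22), with either pair of covariates (0.11 and 0.12) and with only these groups fitted (0.11), and Fabp5 with the keratinocyte and fibroblast covariates (0.78, 0.43). Apoe (0.04, SE 0.22), Lpl (-0.28, SE 0.39) and Lipa (0.12, SE 0.32) did not pass, with intervals of -0.41 to 0.49, -1.08 to 0.52 and -0.53 to 0.77. Beside this, 7 of 12 keratinocyte and 5 of 9 fibroblast genes fell in the node cells and 7 of 8 DC maturation genes rose. Nr1h3 rose by 3.88 (SE 0.30), at 9.43 (SD 0.42) in the CD64+ node cells, against 5.55 (SD 0.20) in P2, and stood between 4.95 and 6.42 in the other 12 populations, while Abca1 fell by 1.58 (SE 0.25) and Hilpda by 3.80 (SE 0.24). Of 9 oxidation genes 4 rose and 0 fell, Cpt2 by 1.54, Etfdh by 1.09, Acadm by 1.20 and Acadl by 1.38.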

How the data were processed

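The arrays were Affymetrix Mouse Gene 1.0 ST. The log2 values were deposited by the authors as a series matrix, and the submitters' processing notes name RMA and affy, with no version. The 3 chip batches that the series mentions are not assigned to arrays in the sources used here, so batch could not be fitted. Of 34760 probe sets, 21640 have 1 symbol in the platform annotation, 1321 several and 11799 none, and 21553 were matched to a RefSeq gene. For 954 genes with more than 1 probe set the one with the highest mean was kept, giving 19937 genes. Array medians were 4.39 to 4.65, and replicates correlated at 0.931 to 0.986 over genes. The number of arrays limits the precision. The 13 populations were fitted in one model in limma 3.58.1 (R 4.3.3), so they share an estimate of the spread, and p-values were adjusted by Benjamini-Hochberg over all genes of a comparison. A gene passed at an adjusted p under 0.05. Intervals are 95%. Members that passed or differed by at least 1 were described. Genes like a member were ranked by Pearson correlation over the population means. The members, lists and tests were chosen with earlier results of these data known. Alternatives were quantile normalization, centring, low genes left out, the mean of all probe sets, trend and robust variances, only the compared groups, marker list means as covariates, blocks, and leaving out each array. The replicate numbers of the titles were checked for pairing: in 0 of 14 comparisons did every same-numbered pair deviate together (correlation over 0.1). The numbers in the source names, which differ in part, were not checked in this way and were fitted as a random block. The fit was tested on simulated data.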

Additional observations from a re-analysis of the deposited data

Results flagged for a closer look

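The effect of DNFB on 3 of the genes passed a test of the difference between populations, but these calls depended on the fit and, except for Pltp, on single arrays. For Apoe the effect was higher by 1.56 in P2 than in dermal DC, a call lost without any 1 of 6 of the 12 arrays (adjusted p = 0.053 to 0.083) and when only these groups were fitted (0.18). It was higher by 1.38 in node DC than in dermal DC, a call lost without any 1 of 5 of the 12 arrays (0.05 to 0.078). For Pltp it was higher by 1.77 in node DC than in dermal DC. For Lpl the difference was 2.18, but Lpl was close to low signal in node DC in both states, so that a fall there could hardly have been measured and the value does not show a different response. The call was lost without any 1 of 10 of the 12 arrays (0.06 to 0.16). All 3 differences between node and dermal DC were lost with the adipocyte and endothelial covariates, and those of Apoe and Pltp also when only these groups were fitted (0.12 and 0.062). All 4 share the arrays of dermal DC, so they are not independent of each other.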

How the results depend on the processing

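Of 73 member differences, 55 passed, 29 of these under all 10 alternatives and without any 1 array, and 0 changed sign. The number of members that passed moved as follows. With only the compared groups fitted it was 2 in place of 4 for dermal DC against P3, 3 in place of 5 for CD64+ node cells against P2, 0 in place of 3 for DNFB in P2, 0 in place of 1 for P5 against P3 and for the difference of DNFB effects between P2 and dermal DC, and 1 in place of 3 for that between node and dermal DC. With adipocyte and endothelial covariates it was 0 for that last difference, 1 for DNFB in P2 and 2 in place of 1 for P3 against P2. With keratinocyte and fibroblast covariates it was 1 in place of 3 for P1 against blood, 2 in place of 1 for P2 against P1, 1 for DNFB in P2, 1 in place of 0 for DNFB in P1 and 3 for CD64+ node cells against P2. With low genes left out it was 1 for DNFB in P1 and 2 for P3 against P2, and with quantile normalization 1 for DNFB in P1. The causes were not tested.

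With the replicate number as a block, 2 members passed for P3 against P2 in place of 1, 3 calls were lost (Cd36 after DNFB in dermal DC and in CD64+ node cells against node DC, and Lpl in the difference of DNFB effects between node and dermal DC), and the other 69 member differences kept their side of the threshold. Samples of a block share only the replicate number of their titles. The source names hold another number, which differs from it in part. With that number as a random block all 73 member differences kept their side of the threshold.

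Leaving out 1 array gave 1 to 3 members for dermal DC against P3, 0 to 4 for DNFB in P2, 3 to 5 for CD64+ node cells against P2, 1 to 2 for P3 against P2, 0 to 1 for P5 against P3, and 0 to 1 and 1 to 3 for the differences of DNFB effects between P2 and dermal DC and between node and dermal DC. Signal near background limits Cd36, Gpnmb and Lpl in node DC, and Gpnmb in blood and in dermal DC at steady state.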

Other observations

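The members moved together between replicates of some populations. In P2 at steady state replicate 1 was highest for 9 of the 10 genes and replicate 3 lowest for 9, with means over the 10 of 9.65 and 8.72. In dermal DC at steady state replicate 2 was lowest for 9, and in the CD64+ node cells replicate 3 was highest for 8. The list of 9 macrophage genes stood apart in the same arrays, with means of 10.16, 9.35 and 8.99 in P2 at steady state, 8.91, 8.68 and 8.96 in dermal DC at steady state and 9.15, 8.99 and 10.05 in the CD64+ node cells, in order of replicate.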
